A study of Mus musculus with 6 samples.

Results

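Ubiquitin-conjugating enzymes (E2s) carry activated ubiquitin, or a related protein such as SUMO, NEDD8 or ISG15, from an activating enzyme (E1) to a ligase (E3) that picks the substrate. The E2 often sets which chain is built, and so whether a protein is degraded, moved or rewired in signalling. In dividing cells UBE2C starts and UBE2S extends the ubiquitin chains that the anaphase-promoting complex (APC/C) puts on mitotic proteins, and UBE2T works with the Fanconi anaemia complex at DNA crosslinks.

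The genes described here were chosen by symbol, as every row of the count table whose name begins with Ube2 and a further letter, without pseudogenes. This gave 32 of 14416 genes, and 0 pseudogenes had to be removed. Ube2c, Ube2s and Ube2t were then set apart from the other 29 with the difference between these genotypes already known, so their values, and the calls they receive in the fit across all genes, are a description that supports nothing further. Not all 32 are active E2s: UBE2V1 and UBE2V2 lack the catalytic cysteine, and Ube2cbp encodes a protein that binds an E2. CDC34, BIRC6 and other E2s named without the prefix were not taken by the rule and are given as a list of their own.

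The transcripts of lung innate lymphoid cells (ILCs) sorted as Lin-Thy1.2+ were sequenced by the Smart-seq2 method, in 3 samples from RBM3KO mice and 3 samples from WT mice, all C57BL/6J. Every mouse of both genotypes had received the mould allergen Alternaria alternata, 25 µg at a time, 3 times in 7 days, so no sample shows the unchallenged lung. The labels give neither the age of the mice nor how the knockout was made. Nor do they tie each sample to an animal of its own, and the spread behind each p-value may therefore be partly technical. RBM3 binds RNA and is induced by cold, and the comparison asks how E2 transcripts differ where it is missing.

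Rbm3 itself stood at 26.5, 22.4 and 31.6 CPM (the count relative to the library's total, scaled by TMM) in RBM3KO replicates 1, 2 and 3, against 269.7, 313.7 and 292.6 CPM in the WT replicates, so all 6 libraries matched their labels. The total count was 7498247 in RBM3KO replicate 3, the shallowest library, and between 13339633 and 25068137 in the other 5. Summed ILC markers, 12 of 12 present, were at 9692 to 10200 CPM in RBM3KO and 7399 to 8637 CPM in WT, with no overlap. By mean level the largest parts of that sum were Arg1, Id2 and Areg. Thy1, the gene of the sorting marker, and Gata3, the transcription factor of group 2 ILCs, were present in all 6 libraries. Thy1 had a mean of 103 CPM in RBM3KO and 104 CPM in WT. For Gata3 the means were 695 and 640 CPM with overlapping groups, and neither gene passed with edgeR. Most other ILC markers were higher in RBM3KO. Of the 12, 11 had log2 fold changes (RBM3KO minus WT) above 0, with a median of 0.45. For 8 of them all RBM3KO values lay above all WT values, as held for 8.43% of all tested genes. None passed with edgeR or limma-voom, and DESeq2 called 4 higher, where it called 153 of 11382 genes higher. Markers of T cells, 9 of 12 present, summed to 522 to 683 CPM in RBM3KO and 440 to 559 CPM in WT, and most of that was Lat and Cd3g. B cell markers, 6 of 8 present, summed to 39.2 to 42.6 CPM in RBM3KO and 65.1 to 90.2 CPM in WT, with Igj at 0 in all 3 RBM3KO libraries and Ms4a1 at 0 in RBM3KO replicates 1 and 3. Myeloid markers summed to 96.5 to 189 CPM in RBM3KO and 114 to 269 CPM in WT (12 of 14 symbols present). Among these symbols Adgre1, which was absent, and Emr1, which was present, name the same gene. Granulocyte and mast cell markers summed to 12.9 to 19.2 CPM in RBM3KO and 19.6 to 27.6 CPM in WT (4 of 11 present). Markers of epithelium, stroma and endothelium (11 of 12 present) reached 410 CPM in RBM3KO replicate 3, where the alveolar gene Sftpc stood at 248.1 CPM, and lay between 62.5 and 175 CPM in the other 5 libraries. Erythroid and platelet markers, 3 of 11 present, did not exceed 3.33 CPM. What these cells contribute to the E2 differences was not tested. In sorted bulk samples, fewer cells of a kind and less RNA per cell cannot be told apart.

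Promoter sequence is shown for the mitotic trio, which dividing cells express, and for the 2 NEDD8 E2s, which moved apart between the genotypes. Each line gives the 250 bases before the RefSeq transcription start (GRCm38.p6, the assembly of mm10), 5′ to 3′ on the strand of the gene. Ube2m has 3 windows of this kind and Ube2f 2, and the outermost start of each is shown. Capitals mark CCAAT, the box bound by NF-Y, and TTTGAA, one form of the cell cycle genes homology region (CHR) bound by the MuvB complexes that time mitotic genes. Both were searched on both strands, so that ATTGG and TTCAAA are matches on the reverse strand. The windows lie at chr2:164769679-164769928 (+) for Ube2c, chr1:134962315-134962564 (+) for Ube2t, chr7:4812341-4812590 (-) for Ube2s, chr7:13038276-13038525 (-) for Ube2m and chr1:91250054-91250303 (+) for Ube2f. In GENCODE M21 the gene Ube2s (chr7:4794546-4812590) covers its window and Ube2c (chr2:164769898-164778822) the last bases of its own, since some of their transcripts start further upstream.
Ube2c: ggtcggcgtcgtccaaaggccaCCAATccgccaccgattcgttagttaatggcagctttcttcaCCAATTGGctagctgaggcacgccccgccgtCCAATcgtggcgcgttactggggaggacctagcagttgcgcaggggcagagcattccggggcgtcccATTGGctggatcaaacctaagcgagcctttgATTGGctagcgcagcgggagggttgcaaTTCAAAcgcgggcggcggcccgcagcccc
Ube2t: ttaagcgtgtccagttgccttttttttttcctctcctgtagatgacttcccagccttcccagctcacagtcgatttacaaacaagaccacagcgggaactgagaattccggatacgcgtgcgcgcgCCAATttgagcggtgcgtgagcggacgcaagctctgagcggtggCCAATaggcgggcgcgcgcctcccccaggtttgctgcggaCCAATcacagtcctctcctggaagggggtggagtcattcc
Ube2s: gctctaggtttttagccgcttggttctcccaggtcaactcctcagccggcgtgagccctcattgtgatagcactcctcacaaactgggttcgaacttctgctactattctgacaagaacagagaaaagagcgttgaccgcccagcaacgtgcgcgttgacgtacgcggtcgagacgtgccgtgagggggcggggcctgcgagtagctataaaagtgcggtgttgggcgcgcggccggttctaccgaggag
Ube2m: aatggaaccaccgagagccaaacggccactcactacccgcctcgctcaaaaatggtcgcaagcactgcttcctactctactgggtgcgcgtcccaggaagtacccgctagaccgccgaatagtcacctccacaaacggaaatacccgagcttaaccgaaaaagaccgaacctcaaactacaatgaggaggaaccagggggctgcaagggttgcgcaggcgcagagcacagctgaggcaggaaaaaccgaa
Ube2f: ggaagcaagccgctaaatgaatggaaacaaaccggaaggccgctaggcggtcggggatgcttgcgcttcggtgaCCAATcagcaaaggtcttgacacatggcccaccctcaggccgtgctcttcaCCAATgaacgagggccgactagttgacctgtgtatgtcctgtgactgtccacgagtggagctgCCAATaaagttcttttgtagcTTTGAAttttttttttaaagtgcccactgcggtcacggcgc

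Ube2c held 6 CCAAT matches, of which a pair shares the letters of CCAATTGG, and a reverse-strand CHR match that begins 29 bases before the start. Ube2t held 3 CCAAT matches and no TTTGAA. Neither CCAAT nor TTTGAA was in the windows of Ube2s and Ube2m, and other forms of the CHR were not searched. The window shown for Ube2f, whose transcript did not pass the test between genotypes, held 3 CCAAT matches and a CHR match that begins 41 bases before the start. The other window of Ube2f held neither motif. A RefSeq window of 250 bases before to 50 after the start was found for 25 of the 32 members, with 36 windows in all. TTTGAA was in 3 of these 36 (8.33%), against 14 of 25 windows (56.0%) of a list of proliferation genes and 17.9% of all 32851 windows. CCAAT was in 6 of 36 (16.7%), against 21 of 25 (84.0%) for the proliferation list and 37.4% of all windows. A match is a run of letters and not a measured binding site.

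**Figure D1:**
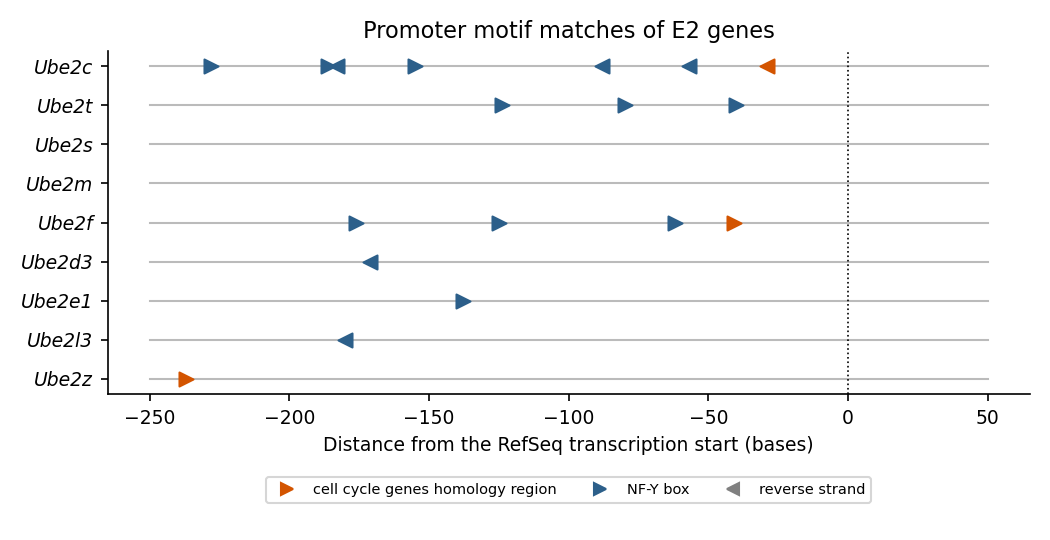
Motif matches in the window from 250 bases before to 50 bases after the RefSeq start, for the 5 genes whose sequence is printed and the 4 other members with a match. The x axis is the distance from the start in bases, and triangles point right for the gene's strand and left for the reverse strand. Ube2c holds 6 matches of CCAAT (NF-Y box) and 1 of TTTGAA (cell cycle genes homology region), and Ube2f holds 3 and 1. Ube2s and Ube2m hold neither CCAAT nor TTTGAA, and other forms of the homology region were not searched.

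All 32 members passed the filter on low counts, so every one was tested among 11382 genes with edgeR's quasi-likelihood test. Ube2m, Ube2c and Ube2s were the 3 members past the threshold (adjusted p under 0.05), all lower in RBM3KO, where 1.25% of all tested genes passed, 1.00% in the lower and 0.246% in the higher direction. No member was called higher. DESeq2 and limma-voom called the same 3 members, and 6 members had an unadjusted p under 0.05, against 12.3% of all genes. Of all tested genes DESeq2 called 3.64% and limma-voom 1.63%, and these shares apply to every list below. Since 2 of the 3 calls belong to the trio, the count over all 32 supports nothing further. Among the other 29 members 1 was called, 4 had an unadjusted p under 0.05 (Ube2m, Ube2o, Ube2e3 and Ube2z), and the median log2 fold change (RBM3KO minus WT) was -0.09, beside 0.01 over all tested genes. The 3 RBM3KO values lay below all 3 WT values for Ube2m, Ube2c, Ube2s and Ube2z, where 10.5% of all genes were separated that way. No member had all RBM3KO values above all WT values, where 8.43% of genes did.

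**Figure D2:**
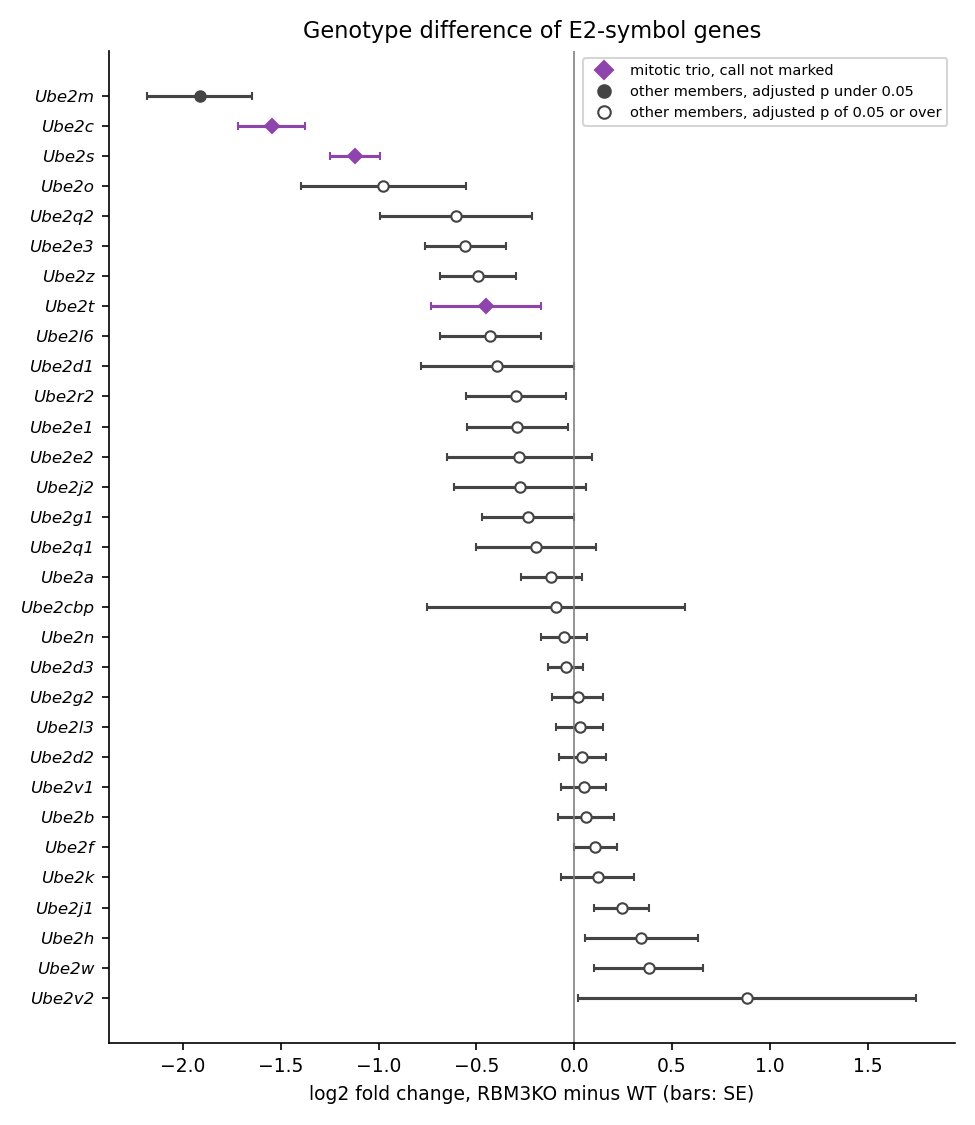
Log2 fold change, RBM3KO minus WT, of 31 members from the edgeR fit, with bars of 1 standard error (SE). Diamonds are the mitotic trio, whose calls are not marked, and the filled circle is Ube2m, at -1.92, the only other member past the threshold. The open circles lie between -0.98 and 0.88.

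Ube2c, the E2 that starts chains for the APC/C, showed the largest difference of the trio. It stood at 57.4, 53.5 and 44.7 CPM in RBM3KO replicates 1, 2 and 3, against 182.5, 148.9 and 124.6 CPM in the WT replicates. All 3 RBM3KO libraries lay under 60 CPM, and no WT library came below 120 CPM. This is a log2 fold change of -1.55 (SE 0.17). The raw counts were 880, 896 and 332 in RBM3KO and 2469, 2534 and 3183 in WT, so the lowest value rests on 332 reads.

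Ube2s, the E2 that extends K11-linked chains on APC/C substrates, was at 61.8, 70.8 and 73.6 CPM in RBM3KO, against 143.5, 148.1 and 156.8 CPM in WT. The groups did not overlap and each was tight, with a log2 fold change of -1.12 (SE 0.13). Ube2t, the Fanconi E2, was at 31.5, 16.7 and 26.0 CPM in RBM3KO, against 37.9, 35.7 and 27.7 CPM in WT. Its groups overlapped, since RBM3KO replicate 1 was above WT replicate 3, and the log2 fold change was -0.45 (SE 0.28). The level of Ube2t per kilobase (kb) of exon relative to Ube2c was 1.28, 0.725 and 1.35 in RBM3KO, against 0.484, 0.558 and 0.518 in WT, so Ube2t made up more of the pair in every RBM3KO library.

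Summed over the trio, the level was 146, 139 and 143 CPM of the total count in RBM3KO, against 369, 338 and 315 CPM in WT. The trio held 4.89% ± 0.34 of all member counts in RBM3KO and 10.2% ± 0.89 in WT (SD, n = 3 each). The other 29 members summed to 2783 ± 156 CPM in RBM3KO and 2995 ± 58 CPM in WT, and these values overlapped between the genotypes. The trio is thus the smaller share of E2 transcripts in both genotypes, and the groups of its sum lay far apart.

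**Figure D3:**
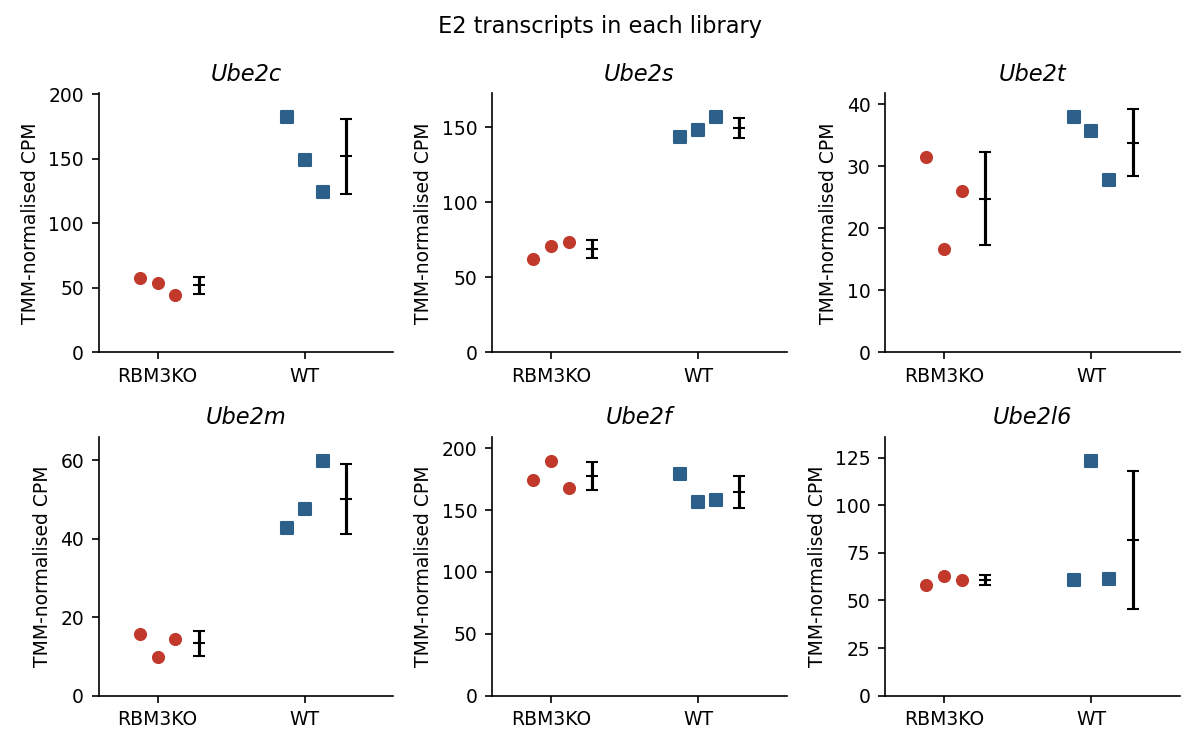
TMM-normalised CPM of 6 members in every library, RBM3KO (circles) left of WT (squares), with the mean and SD of each group (n = 3) as a bar beside the points. Ube2c, Ube2s and Ube2m are lower in all RBM3KO libraries than in any WT library, Ube2t and Ube2f overlap, and Ube2l6 is at 123.4 CPM in WT replicate 2 and near 60 CPM in the other 5.

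Other genes of dividing cells differed in the same direction. Of 29 proliferation genes, a list known to differ here from earlier results, edgeR called 15 lower in RBM3KO and 0 higher. Over all tested genes it called 1.00% lower and 0.246% higher. The list's median log2 fold change was -1.05. DESeq2 called 17 lower and limma-voom 13, where they called 261 and 134 lower among all 11382 genes. Plk1, the mitotic kinase, fell to 30.9, 24.8 and 24.8 CPM in RBM3KO, against 95.2, 82.4 and 78.3 CPM in WT (log2 fold change -1.67, SE 0.18, edgeR adjusted p = 0.0041). Ccna2, cyclin A2, fell by 1.46 on the log2 scale (SE 0.16), and Cdk1, the kinase of mitotic entry, fell by 1.31 (SE 0.16). The count of 15 was 2 without WT replicate 1 and 7 to 9 without any other single library, with Ccna2 and Plk1 called in every case. Counted against the summed proliferation list, Ube2c made up 2.56, 2.36 and 2.13 counts per 100 in RBM3KO, against 4.29, 4.11 and 3.56 in WT, with no overlap. Ube2s made up 2.76, 3.12 and 3.51 per 100 in RBM3KO, against 3.38, 4.09 and 4.48 in WT, and Ube2t 1.41, 0.735 and 1.24 per 100 in RBM3KO, against 0.892, 0.984 and 0.791 in WT, both with overlap. The summed proliferation list itself was at 2076 to 2242 CPM in RBM3KO and 3564 to 4311 CPM in WT. Its most counted genes were Mcm2, Mcm3 and Mcm5, with small log2 fold changes of -0.37, -0.46 and -0.54, and they weigh most in these shares. Beside single mitotic genes of the list, Ube2c at -1.55 did not stand out: Plk1 was at -1.67, Ccnb1 at -1.60 and Ccna2 at -1.46.

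Of the APC/C subunits, activators and inhibitor, 16 of 17 listed genes were tested and 1 passed. Cdc20, the activator with which UBE2C and UBE2S act in mitosis, fell to 59.6, 66.0 and 74.7 CPM in RBM3KO, against 196.5, 149.5 and 108.6 CPM in WT (log2 fold change -1.18, SE 0.20, edgeR adjusted p = 0.022). The call was lost without RBM3KO replicate 1 or 2 or WT replicate 1 or 2. The list's median log2 fold change was -0.14, and 3 had an unadjusted p under 0.05 (12.3% of all genes). DESeq2 called 2 (3.64% of all genes) and limma-voom 1 (1.63%). Of the Fanconi list, which holds the partners and targets of UBE2T, 15 of 18 were tested and none passed with edgeR (3 at an unadjusted p under 0.05, 1 with DESeq2, 0 with limma-voom). Its best expressed member Wdr48, which activates the deubiquitinase of FANCD2, stood at 62.4, 68.8 and 69.6 CPM in RBM3KO, against 56.5, 65.7 and 69.9 CPM in WT.

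NEDD8 has a pair of E2s: UBE2M (UBC12), which serves the RBX1 cullins, and UBE2F, which serves RBX2 (Rnf7) and CUL5. They differed from each other here. Ube2m fell to 15.7, 9.73 and 14.5 CPM in RBM3KO, against 42.6, 47.6 and 59.9 CPM in WT. Every RBM3KO library lay far under the lowest WT library, at a log2 fold change of -1.92 (SE 0.27, adjusted p = 0.0090 with edgeR), the largest of the members. The raw counts were 240, 163 and 108 in RBM3KO and 577, 810 and 1530 in WT. Without WT replicate 1 the log2 fold change was -2.02 and the adjusted p was 0.0569, just above 0.05, in a fit that called 12 genes in all.

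Ube2f stood at 174.2, 190.1 and 167.8 CPM in RBM3KO, against 179.2, 156.5 and 158.1 CPM in WT, with overlapping groups (log2 fold change 0.11, SE 0.11, adjusted p = 0.801 with edgeR). Per kb of exon, the ratio of Ube2m to Ube2f was 0.343, 0.196 and 0.331 in RBM3KO, against 0.910, 1.16 and 1.45 in WT. In WT the pair thus stood at about the same level, and in every RBM3KO library Ube2f was above Ube2m. This ratio is taken within each library, so that depth and scaling cancel.

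Partners of these E2s, named after their values were seen, stood as follows. Nedd8, the modifier itself, was at 293.8, 264.7 and 292.3 CPM in RBM3KO, against 276.5, 279.1 and 260.7 CPM in WT (log2 fold change 0.06, SE 0.09, edgeR adjusted p = 0.894). Nae1 and Uba3, the subunits of the NEDD8 E1, had log2 fold changes of -0.27 (SE 0.23) and -0.29 (SE 0.60), and neither passed. Rbx1 (0.03, SE 0.10) and Rnf7 (0.02, SE 0.16) had small estimates too.

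Sae1, a subunit of the SUMO E1, was at 248.3, 271.4 and 269.3 CPM in RBM3KO, against 329.9, 323.3 and 330.0 CPM in WT. Its groups did not overlap, as held in this direction for 10.5% of all tested genes. The adjusted p of Sae1 was 0.153 (edgeR, log2 fold change -0.32, SE 0.09). Sumo3, named after its values were seen, had a log2 fold change of -0.51 (SE 0.11, edgeR adjusted p = 0.0572). DESeq2 and limma-voom called Sumo3, as did edgeR with no filter or with at least 10 CPM in 3 libraries. Of the fits with libraries left out, only that without RBM3KO replicate 3 called it. No E1 gene of 9 passed with edgeR, DESeq2 or limma-voom, and 1 had an unadjusted p under 0.05. Uba1, the main E1 of ubiquitin, was at 539.8, 463.8 and 454.5 CPM in RBM3KO, against 479.4, 459.9 and 471.3 CPM in WT.

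Ube2l6 (UBCH8), the ISG15 E2, is induced by interferon. It stood at 58.1, 63.1 and 61.0 CPM in RBM3KO, against 60.6, 123.4 and 61.2 CPM in WT (log2 fold change -0.43, SE 0.26, edgeR adjusted p = 0.574). WT replicate 2 alone was high. Without it the log2 fold change was -0.01. In that library Isg15 stood at 63.7 CPM and Usp18, the ISG15 protease, at 130.0 CPM, the highest values of either gene in any library. RBM3KO replicate 2 came next for both, at 29.3 and 68.4 CPM, but its Ube2l6 was at 63.1 CPM. Of the ISG15 genes, 6 of 7 were tested and none passed with edgeR, DESeq2 or limma-voom, and 0 had an unadjusted p under 0.05. Uba7, the E1 of ISG15, was at 87.7, 148.4 and 106.9 CPM in RBM3KO, against 154.0, 142.8 and 98.5 CPM in WT.

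The broad-range E2s of the UBE2D and UBE2E families serve many E3s. Ube2d3 was the most counted member, at 660.1, 684.7 and 581.2 CPM in RBM3KO, against 668.5, 670.0 and 646.0 CPM in WT (log2 fold change -0.04, SE 0.09, edgeR adjusted p = 0.927). Ube2d1 was at 7.11, 13.3 and 17.2 CPM in RBM3KO, against 17.2, 19.3 and 12.7 CPM in WT, a spread within genotypes that exceeds the difference (-0.39, SE 0.39). Ube2e3 was at 43.2, 54.8 and 49.5 CPM in RBM3KO, against 75.9, 54.0 and 86.9 CPM in WT (-0.56, SE 0.21, edgeR adjusted p = 0.283). WT replicate 2 lay inside the RBM3KO range and the other WT libraries above it. Ube2d2, Ube2e1 and Ube2e2 had log2 fold changes of 0.04, -0.29 and -0.28, none of which passed. Of the 1408 exon bases of Ube2e1, 718 overlap another annotated gene, Nkiras1, and of the 2480 of Ube2d2, 309 overlap one. Reads can be split between close copies: Ube2d2 and Ube2d3 share 84.1% of their aligned coding bases, the highest identity of 13 pairs compared, and the UBE2E pairs share 76.6% to 78.0%.

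Ube2l3 (UBCH7), which works with RBR ligases such as the linear-chain complex LUBAC, had a log2 fold change of 0.03 (SE 0.12). Of the RBR ligases, 12 of 13 were tested and none passed with edgeR, 1 each passed with DESeq2 and limma-voom, and 3 had an unadjusted p under 0.05. Rbck1, a LUBAC subunit, stood at 366.0, 364.5 and 329.1 CPM in RBM3KO, against 366.5, 335.9 and 346.8 CPM in WT. The gene that DESeq2 and limma-voom called was Rnf19b. It was at 142.8, 142.1 and 179.5 CPM in RBM3KO, against 206.1, 229.2 and 240.2 CPM in WT, with no overlap (-0.54, SE 0.12, edgeR adjusted p = 0.073). Separation in that direction was seen for 10.5% of all genes.

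K63-linked chains, which carry signals of TRAF ligases and DNA repair, are built by UBE2N (UBC13) with UBE2V1 or UBE2V2. Ube2n had a log2 fold change of -0.05 (SE 0.12). Ube2v1 stood at 182.6, 170.3 and 147.0 CPM in RBM3KO, against 162.5, 157.8 and 163.2 CPM in WT (0.05, SE 0.11), where 757 of its exon bases overlap another annotated gene. Ube2v2 had the highest estimate of all members, 0.88, but the widest error, 0.87, at 8.28, 2.51 and 7.27 CPM in RBM3KO, against 2.22, 6.82 and 0.744 CPM in WT. Of 15 K63 ligases and deubiquitinases 14 were tested and 1 passed, in the higher direction. Tnfaip3 (A20), an inhibitor of NF-κB signalling, rose to 1857, 1585 and 1632 CPM in RBM3KO, against 1149, 1025 and 1353 CPM in WT (log2 fold change 0.52, SE 0.11, edgeR adjusted p = 0.0495). That call was lost in the non-robust fit and without any single library other than WT replicate 3.

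Ube2a and Ube2b encode the RAD6 proteins, which modify PCNA and histone H2B. Ube2b stood at 184.9, 158.8 and 192.2 CPM in RBM3KO, against 136.8, 194.0 and 182.1 CPM in WT (log2 fold change 0.06, SE 0.14, adjusted p = 0.935 with edgeR). Ube2a had an estimate of -0.12 (SE 0.16). The K48-chain builders Ube2k, Ube2r2 and Ube2g1 had estimates of 0.12, -0.30 and -0.24, and none passed. Cdc34, the relative of Ube2r2 that lacks the prefix, was at 71.4, 74.3 and 79.7 CPM in RBM3KO, against 115.5, 98.2 and 85.1 CPM in WT (-0.41, SE 0.15, edgeR adjusted p = 0.289). These groups did not overlap, where 10.5% of all genes were separated that way. Of the 8 E2s and E2-like genes without the prefix, none passed with edgeR, DESeq2 or limma-voom, 1 had an unadjusted p under 0.05, and their median log2 fold change was 0.19.

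Ube2g2, Ube2j1 and Ube2j2 act at the endoplasmic reticulum, where misfolded proteins are marked for degradation. Ube2g2 stood at 177.2, 178.5 and 141.3 CPM in RBM3KO, against 144.9, 177.0 and 169.5 CPM in WT (log2 fold change 0.02, SE 0.13, edgeR adjusted p = 0.983). Ube2j1 had an estimate of 0.24 (SE 0.14) and Ube2j2 of -0.28 (SE 0.34). Of 15 ligases and partners of this pathway none passed with edgeR or limma-voom, DESeq2 called 1, and 2 had an unadjusted p under 0.05. Vcp, the ATPase that extracts the substrates, was at 386.1, 402.7 and 408.4 CPM in RBM3KO, against 352.1, 368.8 and 375.6 CPM in WT.

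Ube2z, the E2 charged by UBA6, was at 53.5, 61.6 and 48.9 CPM in RBM3KO, against 62.4, 95.3 and 73.0 CPM in WT. All RBM3KO values lay below the WT values, by under 1 CPM at the nearest, and the test was not passed (log2 fold change -0.49, SE 0.19, edgeR adjusted p = 0.324). Ube2o, a large enzyme that acts as both E2 and E3, was at 9.0, 6.15 and 5.65 CPM in RBM3KO, against 8.57, 16.3 and 16.2 CPM in WT, with WT replicate 1 inside the RBM3KO range (-0.98, SE 0.42, edgeR adjusted p = 0.379). Ube2q2 was at 6.52, 10.03 and 16.3 CPM in RBM3KO, against 15.1, 16.4 and 18.1 CPM in WT (-0.61, SE 0.39). Ube2w, which modifies protein N-termini, was at 36.1, 29.6 and 44.7 CPM in RBM3KO, against 33.5, 19.1 and 32 CPM in WT (0.38, SE 0.28). Ube2h, the E2 of the CTLH ligase, was at 21.3, 40.2 and 30.0 CPM in RBM3KO, against 27.9, 24.6 and 19.7 CPM in WT (0.34, SE 0.29). Ube2q1 (-0.19, SE 0.31) and Ube2cbp (-0.09, SE 0.66) did not pass, and Ube2cbp rests on 41 to 87 counts per library.

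Precision differed with level. The 11 members outside the trio with a mean of at least 100 CPM had log2 fold changes between -0.12 and 0.24, with SEs of 0.09 to 0.16. The 18 with a lower mean ran from -1.92 to 0.88, with SEs of 0.19 to 0.87. A change of moderate size could therefore have gone uncalled among the scarce members.

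Levels of different members can be compared only per length, given as CPM per kb of the annotated exons. Ube2d3 was highest at 139 ± 7.88 CPM per kb (SD, n = 6 libraries), followed by Ube2b (93.1 ± 12), Ube2s (88.1 ± 36.0), Ube2g2 (81.1 ± 8.41) and Ube2v1 (75.9 ± 5.55). From Ube2b to Ube2v1, neighbours in this order differed by less than their spread. Ube2o (1.98 ± 0.92) and Ube2v2 (1.09 ± 0.74) were lowest. The wide spread of Ube2s is the difference between the genotypes. With the length of the longest coding transcript in place of all exons, Ube2v1 ranked 3, Ube2c 4 and Ube2w 9, so single ranks depend on which exons are counted.

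**Figure D4:**
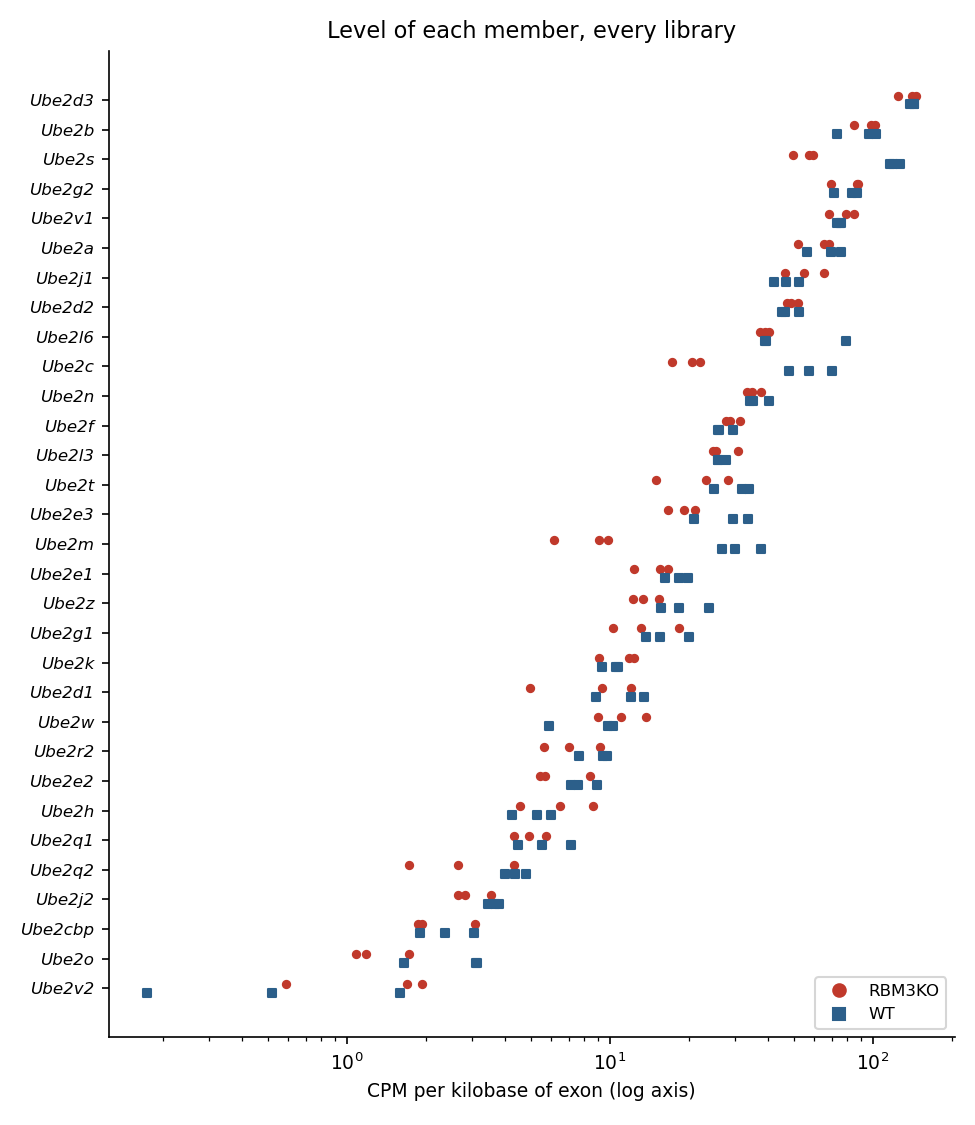
CPM per kb of exon (log axis) of 31 members in each of the 6 libraries, RBM3KO (circles) above WT (squares), ordered by the mean over all libraries. Ube2d3 is at the top at a mean of 139 and Ube2v2 at the bottom at 1.09, and the rows of Ube2c, Ube2s and Ube2m show the genotypes apart.

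The ratios between close relatives other than the NEDD8 pair overlapped between genotypes. Per kb, Ube2d2 relative to Ube2d3 was 0.360 ± 0.018 in RBM3KO and 0.339 ± 0.027 in WT (SD, n = 3 each), and Ube2a relative to Ube2b was 0.658 ± 0.142 in RBM3KO and 0.759 ± 0.205 in WT. Ube2n relative to Ube2v1 was 0.461 ± 0.061 in RBM3KO and 0.489 ± 0.040 in WT.

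Ube2m and the trio kept their direction throughout. Under 15 alternatives in scaling, filter, test or libraries, Ube2c, Ube2s, Ube2m and Ube2t were lower in RBM3KO every time. Ube2t was called under none of them. Each alternative refits the same 6 libraries or a part of them, so a kept direction is no independent support. With WT replicate 2 and RBM3KO replicate 3 both left out, which was chosen after seeing the data, 0 members were called in a fit that called 7 genes, and the log2 fold change of Ube2c was -1.47.

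**Figure D5:**
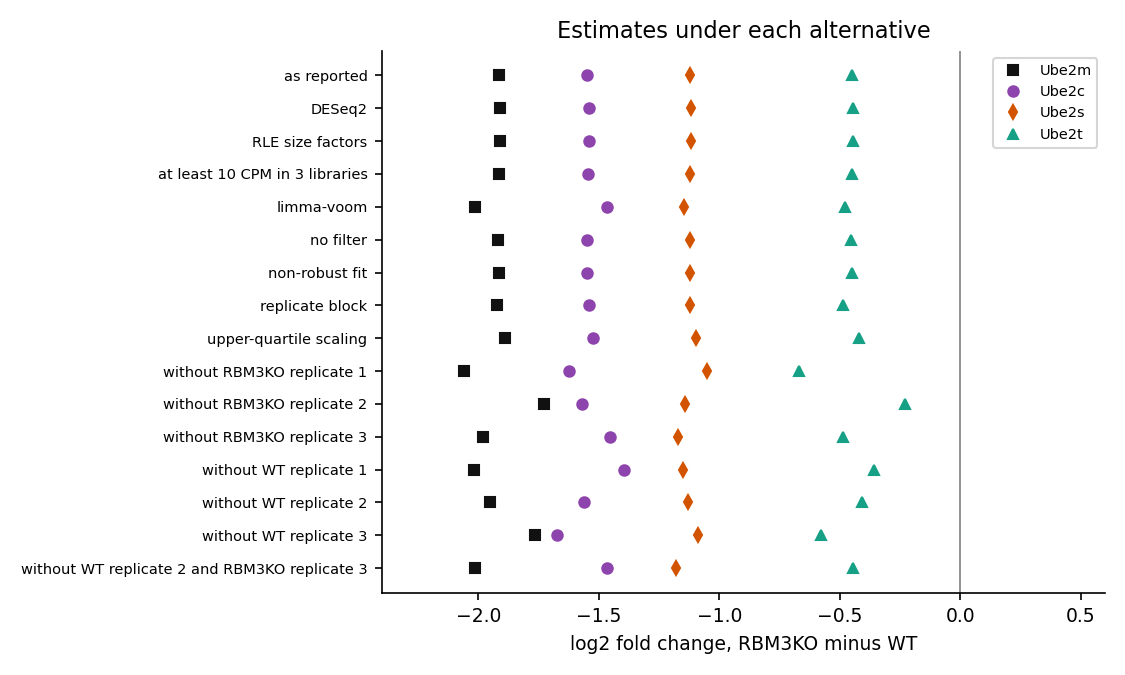
Log2 fold change, RBM3KO minus WT, of Ube2m, Ube2c, Ube2s and Ube2t as reported (top row) and under each of 15 alternatives (rows). Every estimate lies below 0, with Ube2t nearest to it. Ube2t is past the threshold in no row.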

How the data were processed

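The deposited file is 1 table of read counts by gene symbol, not normalized by the authors, with 1 column per sample. Per the submitters' processing notes, the tools were Bowtie 1.0.0, STAR 2.6.1c and featureCounts 1.6.5 with mm10, given without role or order. For the annotation, strand setting and read filters, the sources used here give nothing. Smart-seq2 with Nextera XT in its standard form marks no strand and has no molecular identifiers, so overlapping genes and PCR copies are not resolved. Besides the members named above with an overlap, Ube2g2, Ube2l3 and Ube2w overlap other annotated genes by 102 to 187 exon bases.

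Counts were filtered with edgeR's filterByExpr (11382 genes, 99.9% of counts), scaled by TMM and tested with edgeR 4.0.16 in R 4.3.3 (quasi-likelihood, robust, no covariate), with Benjamini-Hochberg adjustment over all tested genes at 0.05. The SE is the log2 fold change divided by the square root of F. With 3 against 3, an exact permutation test of a single value cannot pass 0.05. Summed levels are CPM of the total count. DESeq2 1.42.0 and limma 3.58.1 (voom) were alternatives, and the fit was tested on simulated data. A count of 0 allows up to 3 counts, 0.120 to 0.400 CPM by library, for counting error only.

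The members and lists were chosen with earlier results of these data known. Values per library are given for the trio, called members, the 8 others with the largest fold change at a mean of at least 10 CPM, the 6 with the highest level per kb, and up to 3 called or else 2 best expressed genes per list, of which not all are printed. Of the members, 31 matched GENCODE M21 by symbol and 1 by an older symbol. Of the 32 members, 1 is counted but its values are not reported here, nor are those of some genes of the lists.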

Additional observations from a re-analysis of the deposited data

How the results depend on the processing

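Among the 17 members named with values, 243 of 254 values under 15 alternatives kept their direction and side of the threshold, 4 lost the call and 7 turned sign, all of these near 0. With libraries left out, the log2 fold change ran from -0.075 (without WT replicate 1) to 0.161 for Ube2b, from -0.091 to 0.033 (without RBM3KO replicate 3 and WT replicate 2) for Ube2d3, from -0.063 (without WT replicate 1) to 0.178 for Ube2g2, and from -0.022 (without RBM3KO replicate 1) to 0.131 for Ube2v1. The 3 called members stayed called under every change of scaling, filter or tool. Leaving out libraries gave 0 to 3 called members, 0 to 1 outside the trio and 0 to 5 genes over the ubiquitin pathway lists, where 3, 1 and 3 were reported. Of these, leaving out WT replicate 1 gave 2, 0 and 0, and leaving out WT replicate 2 and RBM3KO replicate 3 together gave 0, 0 and 0. Fewer samples give the test less to work with. The pathway lists held 8 called genes with DESeq2 and 5 each with limma-voom, with no filter and with at least 10 CPM in 3 libraries, and the cause was not tested. The adjusted p of Ube2m ran from 7.53e-08 with DESeq2 to 0.0848 without the pair of libraries. Over all genes, 142 were called as reported, 414 with DESeq2, 186 with limma-voom, 190 with no filter, 212 with at least 10 CPM in 3 libraries, and 7 to 99 with libraries left out. The deviations of same-numbered samples correlated at 0.056, 0.057 and 0.005, and those of differently numbered samples at -0.069 to 0.021. With 3 samples per genotype these values cannot show whether a shared number marks a pair. With a replicate block, 3 members and 149 genes were called, and the adjusted p of Ube2m was 0.0144. Outside the trio, SEs were 0.19 to 0.87 for the 18 members with a mean under 100 CPM and 0.09 to 0.16 for the other 11, and what depth contributes to this was not tested.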
